A study of Mus musculus with 2 samples.

Results

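Microglia without activation genes were examined in the optic nerves of *Nf1*-OPG mice, a model of the low-grade optic pathway glioma that arises in neurofibromatosis type 1. Microglia are the resident macrophages of the brain, retina and optic nerve. They are kept in a surveying state by colony-stimulating factor and TGF-beta signals, and in that state they carry a set of surface receptors and transcription factors that other macrophages largely lack. In mouse optic glioma they are known to exchange chemokines with T cells and glioma cells.

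A cell was counted as a member when its raw counts of unique molecular identifiers (UMIs, 1 per captured RNA molecule) met 4 limits. The sum of *Tmem119*, *P2ry12* and *Sall1* had to be at least 3, that of *Csf1r* and *C1qa* at least 2, that of *F13a1* and *Lyve1* at most 1, and that of *Cst7*, *Lpl*, *Itgax* and *Gpr84* at most 1. *Tmem119* encodes a surface protein of microglia, *P2ry12* a purinergic receptor that steers their processes, and *Sall1* a transcription factor that holds their identity. *Csf1r* is the colony-stimulating factor receptor and *C1qa* a chain of complement C1q, both found in macrophages of many tissues. *F13a1* and *Lyve1* mark macrophages of the meninges and perivascular spaces, and *Cst7*, *Lpl*, *Itgax* and *Gpr84* are switched on in microglia around damage and lipid debris. Of 25652 kept cells, 691 were members, 2.69% (95% exact binomial interval 2.50 to 2.90).

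The 2 libraries are called C-ON and FMC_new, and both carry the genotype label NF1-OPG. Per the labels, optic nerves of 10 mice aged 12 weeks were pooled before cell capture, so the spread between single mice is not in the data. The study's methods speak of individual mouse samples instead, and which of the accounts holds for a library was not settled by the sources used here. Per the study, these mice are *Nf1* flox/mut; GFAP-Cre on a C57BL/6 background. Every cell, microglia included, therefore carries 1 mutant *Nf1* allele, and the second allele is removed only in cells in which the GFAP promoter drove Cre. The title of C-ON holds the word control, which the sources used here do not explain, so both libraries were treated as 2 samples of 1 condition. No test between conditions can be made, and the difference between C-ON and FMC_new is the only spread between samples.

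C-ON held 8834 kept cells and 95 members (1.08%, 95% interval 0.871 to 1.31), and FMC_new 16818 kept cells and 596 members (3.54%, 3.27 to 3.83). The intervals of these 2 shares do not overlap, and intervals here cover counting error only. The share also depends on which other cells each pool held. Of the barcodes, 296 occurred in both libraries, 188 of them among kept cells, and 0 among the members. Median depth was 4766 UMIs and 1990 genes per member in C-ON and 4541 UMIs and 1937 genes in FMC_new, and all members together gave 505877 and 3137141 UMIs. Values of C-ON rest on fewer cells and carry the wider intervals.

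The limits removed cells in steps. At least 3 UMIs of *Tmem119*, *P2ry12* and *Sall1* were found in 344 cells of C-ON and 1281 of FMC_new. The requirement for *Csf1r* and *C1qa* then removed 158 and 93 cells, and the border macrophage limit 8 and 22. The last limit divided the remaining 178 and 1166 cells into members and 83 and 570 cells with at least 2 UMIs of *Cst7*, *Lpl*, *Itgax* and *Gpr84*, called activated microglia below. Members made up 53.4% (45.8 to 60.9) of these microglia in C-ON and 51.1% (48.2 to 54.0) in FMC_new. Within the members, 70 cells of C-ON and 389 of FMC_new had 0 UMIs of the 4 activation genes, and 25 and 207 had 1.

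That last limit is a count, so it works differently in shallow and deep cells. Among cells of 500 to 2000 UMIs in both libraries, 84 were members and 8 activated, so members made up 91.3%. The members' share was 78.8% at 2000 to 4000 UMIs, 62.6% at 4000 to 6000, 43.9% at 6000 to 8000, 26.2% at 8000 to 12000 and 22.2% at 12000 to 20000 UMIs, where 35 members stood beside 123 activated cells. Activated microglia had median depths of 8361 and 8050 UMIs against 4766 and 4541 in members. Comparisons of members with activated microglia are therefore also given within 4000 to 8000 UMIs.

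The unit of level is CPM, in which a gene's or list's UMIs are divided by all UMIs of its class and scaled to a total of 1000000. The value of C-ON always comes before that of FMC_new. UMIs are counted once per molecule at its 5′ end and were not divided by transcript length. The genes of the rule describe the choice and nothing more. *Tmem119* stood at 759 and 723 CPM in members, *P2ry12* at 852 and 770, and *Sall1* at 81.0 and 88.9. *Csf1r* stood at 1380 and 1184 CPM and *C1qa* at 5308 and 7118. *Gpr84*, a receptor for medium-chain fatty acids, stood at 29.7 and 29.0 CPM in members and 446 and 402 in activated microglia. *Tmem119*, *P2ry12* and *Sall1* lie at chr5:113793729-113800516, chr3:59216272-59262871 and chr8:89027235-89044162 of GRCm38, all on the minus strand.

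The name microglia was checked on 22 further genes of the surveying state, which the rule did not use. T cells served as a reference for RNA that floats between droplets, since they should lack these transcripts. They were chosen without UMIs of *Csf1r* and *C1qa*, which can leave out cells that took up floating microglial RNA. Their levels may therefore understate this background, and by how much was not tested. The list summed to 32166 CPM (95% exact Poisson interval 31674 to 32664) in members of C-ON and 34399 (34194 to 34605) in FMC_new. T cells held 1449 and 2176 CPM. Border macrophages, defined by at least 2 UMIs of *F13a1* and *Lyve1*, at least 2 of *Csf1r* and *C1qa* and at most 1 of the 3 microglial genes, numbered 164 and 329 and held 7266 and 7593 CPM. Since that definition limits microglial genes, the border macrophage level describes the choice and is no test of the name. Activated microglia held 38229 and 32888 CPM, above the members in C-ON and below them in FMC_new.

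*Cst3*, a secreted inhibitor of cathepsins, gave most of the list's UMIs with 20058 and 21896 CPM, against 4148 and 4485 in border macrophages. *Sparc*, a matrix-binding glycoprotein, reached 1263 and 1212 CPM against 39.4 and 76.6 in border macrophages, a difference of 5.00 and 3.98 on the log2 scale. A UMI of *Sparc* was found in 76 of 95 members of C-ON and 500 of 596 of FMC_new. Of T cells, with median depths of 3770.5 and 3482 UMIs, 6.91% and 10.5% held one, and after thinning to 1000 UMIs per cell the shares were 66.7% and 58.8% of members and 1.29% and 3.32% of T cells. *Cx3cr1*, the receptor for the neuronal chemokine fractalkine, stood at 992 and 900 CPM in members and at 987 and 905 in activated microglia, so it hardly separated these classes. *Olfml3* (461 and 480 CPM), *Siglech* (417 and 442), *Gpr34* (295 and 295) and *P2ry13* (87.0 and 113) were present in both libraries. *Slc2a5*, the fructose transporter GLUT5, stood at 43.5 and 44.6 CPM in members and at 1.13 and 1.62 in border macrophages.

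Not all genes of the list were particular to microglia. *Fcrls*, an Fc receptor-like protein, was lower in members than in border macrophages of C-ON (83.0 against 214 CPM) and close to them in FMC_new (89.9 against 96.5). *Ltc4s*, leukotriene C4 synthase, was also below the border macrophage level in both libraries (180 against 342 and 241 against 267 CPM). *Upk1b* gave 3.95 and 4.46 CPM, the lowest of the list.

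The transcription factors and TGF-beta parts that maintain microglia summed to 4604 and 4176 CPM in members, 4111 and 4184 in activated microglia and 3189 and 2471 in border macrophages. *Tgfbr1*, a TGF-beta receptor subunit, stood at 729 and 508 CPM against 234 and 129. *Mef2a* (625 and 479), *Runx1* (423 and 357), *Mef2c* (374 and 293), *Irf8* (297 and 328) and *Spi1* (271 and 306) were also present. *Maf* was at least 2-fold higher in border macrophages, at 444 and 305 CPM against 144 and 120.

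**Figure D1:**
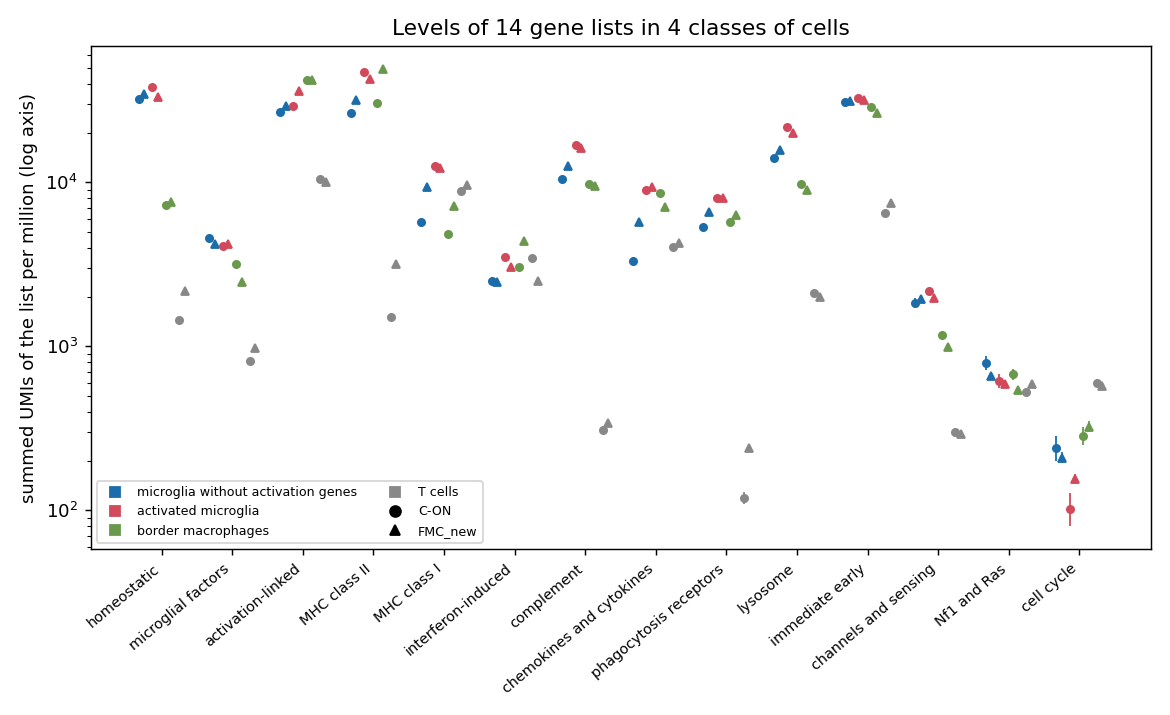
Summed level of 14 gene lists in CPM (log axis) for members, activated microglia, border macrophages and T cells, with circles for C-ON, triangles for FMC_new and bars for 95% Poisson intervals. The surveying-state list stands at 32166 and 34399 in members and at 7266 and 7593 in border macrophages, whereas MHC class II and mediator levels of members lie below those of activated microglia.

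Cells just inside and just outside the limit of 3 UMIs show how the class thins out. The limit was met exactly by 16 members of C-ON and 134 of FMC_new. Another 29 and 240 cells had 2 UMIs and met every other limit. Their surveying-state list stood at 13166 and 17832 CPM, against 11249 and 20894 in the members with 3 UMIs. In members with 8 or more UMIs, 41 cells of C-ON and 245 of FMC_new, it stood at 45353 and 41919. *Sparc* followed the same order in FMC_new, at 468 CPM in the cells outside, then 559, 719, 957 and 1631 in members with 3, 4, 5 to 7 and 8 or more UMIs. In C-ON the values were 275 outside, then 507, 375, 1305 and 1811, of which the bins of 3 and 4 UMIs hold only 16 and 13 cells. In FMC_new the list and *Sparc* thus changed by degrees across the limit.

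Other gene groups moved along the same axis. *Apoe*, the main lipid carrier of glia and macrophages, stood at 8430 and 12441 CPM in members with 3 UMIs and at 2063 and 3619 in those with 8 or more. *Lyz2*, the lysozyme of myeloid cells, stood at 2942 and 2471 CPM with 3 UMIs and at 362 and 527 with 8 or more. The 8 border macrophage markers summed to 345 and 297 CPM in members with 3 UMIs, to 44.2 and 23.5 in those with 8 or more, and to 3206 and 2071 in the border macrophages themselves. The MHC class II list went from 36802 and 39999 CPM to 9124 and 25714, and immediate early genes from 18847 and 21700 to 40171 and 37777. Oligodendrocyte markers were at 23960 and 12335 CPM with 3 UMIs and at 8938 and 6307 with 8 or more. In C-ON the bins of 3 and 4 UMIs hold under 20 cells, and from the 25 members with 5 to 7 UMIs to those with 8 or more the surveying-state list went from 31851 to 45353 CPM, MHC class II from 39730 to 9124 and *Apoe* from 12128 to 2063. Depth differed too, with medians of 5205 and 2980 UMIs in the first bin and 5225 and 6018 in the last. In FMC_new cells of 4000 to 8000 UMIs the surveying-state list still went from 21066 CPM in 34 members with 3 UMIs to 47902 in 145 with 8 or more, and MHC class II from 46173 to 26288. The part of oligodendrocyte RNA and of border macrophage transcripts in these gradients was not tested.

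**Figure D2:**
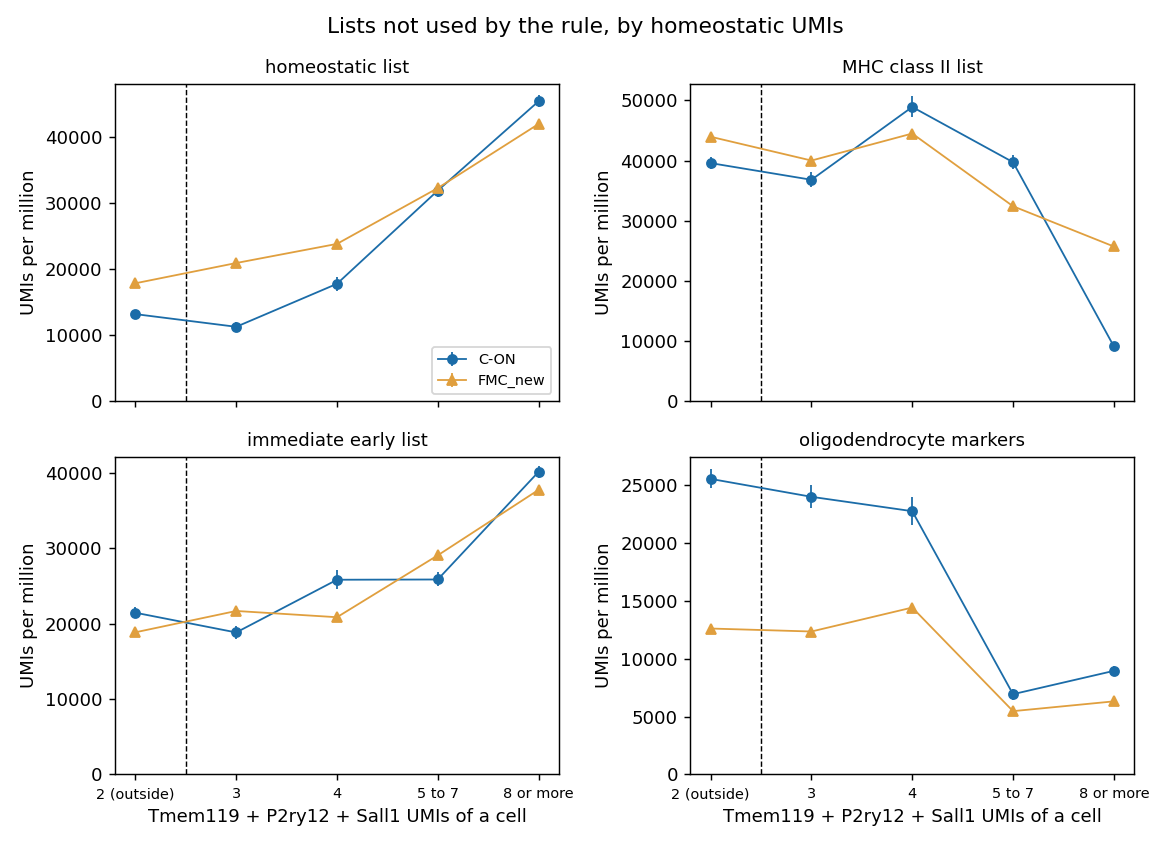
Summed level of 4 gene lists in CPM (vertical axis) by the summed UMIs of *Tmem119*, *P2ry12* and *Sall1* in a cell (horizontal axis, bins 2, 3, 4, 5 to 7 and 8 or more) for both libraries, with bars for 95% Poisson intervals and a dashed line at the limit of 3. Surveying-state and immediate early genes are highest and MHC class II lowest in the last bin.

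MHC class II molecules show peptides to CD4+ T cells, and microglia of a healthy nerve carry little of them. The 7 genes of the list summed to 26580 CPM (26132 to 27033) in members of C-ON and 31559 (31362 to 31756) in FMC_new, against 1515 and 3195 in T cells. *Cd74*, the invariant chain that guides class II molecules to the endosome, gave 14458 and 17966 CPM. The chains *H2-Aa* (4094 and 4684), *H2-Ab1* (3736 and 3851) and *H2-Eb1* (3716 and 4309) followed, and the peptide-loading genes *H2-DMa* and *H2-DMb1* stood at 308 and 448 and at 233 and 277 CPM. *Ciita*, the factor that switches on the whole set, stood at 33.6 and 23.0 CPM in members and 22.4 and 21.2 in activated microglia. The rule holds members to at most 1 UMI of the 4 activation genes, and as a class members do not lack transcripts of antigen presentation.

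The MHC class II level was very uneven between members. Each cell was thinned to 1000 UMIs, which left 93 members of C-ON and 594 of FMC_new. The median was 1 class II UMI per 1000 in C-ON and 23 in FMC_new. In C-ON, 50 members (53.8%, 43.1 to 64.2) held 0 or 1 such UMI and 24 (25.8%) held 40 or more, with 12 and 7 members at 2 to 9 and 10 to 39. In FMC_new, 150 members (25.3%) held 0 or 1, 85 held 2 to 9, 159 held 10 to 39 and 200 (33.7%) held 40 or more. Of T cells, 94.4% and 82.8% held 0 or 1 UMI, so that the low end of the members lies at the T cell level. The class II level of a C-ON member was thus mostly either near the T cell level or high, whereas FMC_new members filled the range between. Activated microglia were uneven too, with 44.6% and 14.9% of cells at 0 or 1 and 47.0% and 50.4% at 40 or more.

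**Figure D3:**
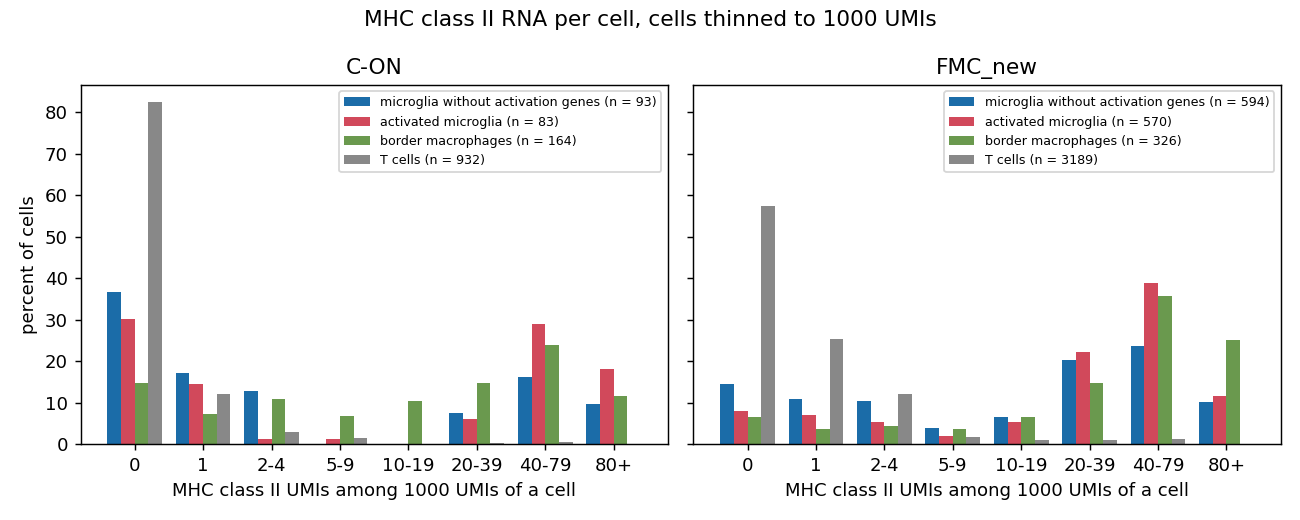
Percent of cells (vertical axis, from 0) by the number of MHC class II UMIs among 1000 UMIs per cell (horizontal axis) in members, activated microglia, border macrophages and T cells of C-ON and FMC_new. In members, 53.8% and 25.3% hold 0 or 1 such UMI and 25.8% and 33.7% hold 40 or more, against 94.4% and 82.8% of T cells at 0 or 1.

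Members with 0 or 1 class II UMI and those with 40 or more differed in many other genes. The surveying-state list stood at 43061 and 50127 CPM in the former and 16593 and 27570 in the latter. *Sparc* stood at 1674 and 2034 against 349 and 672 CPM. MHC class I genes went the other way, from 3705 and 5333 CPM to 10266 and 12800, and so did *Apoe* (3943 and 4495 against 13318 and 11364) and *Lyz2* (435 and 546 against 4099 and 2113). The 14 chemokine, cytokine and related genes described further on summed to 2170 and 3054 CPM in members with little class II and to 6180 and 8582 in those with much. The T cell-attracting chemokine gene *Ccl4* stood at 148 and 442 against 1138 and 2548 CPM. Immediate early genes were at 37330 and 39904 against 26705 and 29040 CPM. The difference in the surveying-state list was also present within 4000 to 8000 UMIs, where 29 and 67 members with little class II held 47953 and 56695 CPM and 12 and 89 members with much held 17713 and 28775. Border macrophage markers summed to 53.3 and 40.7 CPM in members with little class II and 601 and 277 in those with much, and oligodendrocyte markers to 13978 and 12468 against 3513 and 4377. The part of these markers in the contrast was not tested.

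Promoters are shown for *H2-Aa* and *H2-Eb1*, chain genes of the list by which the members divide above. Class II promoters are known to share a set of upstream boxes, of which the Y box holds an inverted CCAAT sequence. The sequences are the 150 bases before the RefSeq start of each gene in GRCm38.p6, 5′ to 3′ on the gene's strand, and capitals mark the 8-base motif CTGATTGG. They lie at chr17:34287824-34287973 on the minus strand for *H2-Aa* and at chr17:34305717-34305866 on the plus strand for *H2-Eb1*.
H2-Aa: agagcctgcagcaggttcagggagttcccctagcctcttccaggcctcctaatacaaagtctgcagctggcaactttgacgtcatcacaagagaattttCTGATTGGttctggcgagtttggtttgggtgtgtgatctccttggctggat
H2-Eb1: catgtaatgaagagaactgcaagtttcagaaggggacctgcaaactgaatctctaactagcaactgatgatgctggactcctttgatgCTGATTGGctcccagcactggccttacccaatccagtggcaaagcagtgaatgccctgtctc
The motif begins 51 bases before the start of *H2-Aa* and 62 bases before that of *H2-Eb1*. It or its complement CCAATCAG is in 1346 of 32851 mouse promoter windows of 300 bases, 4.10%. The windows of *H2-DMa* and *H2-DMb1* do not hold these letters, and *H2-Ab1*, *Ciita* and *Cd74*, the other 3 of the 7 list genes, were not examined. A match of letters is a description and was not linked to binding of a factor here.

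MHC class I and proteasome genes, which present peptides to CD8+ T cells, summed to 5756 and 9416 CPM in members and 12551 and 12213 in activated microglia. *B2m*, the shared light chain, stood at 1595 and 3245 CPM. *H2-D1* (2014 and 2845) and *H2-K1* (1467 and 2361) are close relatives, so the split of reads between them is uncertain. The interferon-stimulated list summed to 2491 and 2471 CPM, below the T cell level of 3440 in C-ON and near that of 2498 in FMC_new. Within it *Bst2* (298 and 348) and *Isg15* (184 and 177) were close between libraries, and *Cxcl10*, a chemokine for activated T cells, stood at 57.3 and 149 CPM.

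Complement genes, which tag debris and synapses for removal, summed to 10418 and 12627 CPM against 308 and 343 in T cells, which were chosen without *C1qa* UMIs. *C1qb* (5266 and 6332) and *C1qc* (3912 and 5021), the partners of *C1qa* in C1q, gave most of it. The receptor genes *Itgam* (275 and 231) and *C3ar1* (253 and 251) were much lower, and *C3*, the central component, stood at 33.6 and 43.4 CPM. Genes of phagocytosis summed to 5359 and 6602 CPM, with the adaptors *Tyrobp* (1641 and 2080) and *Fcer1g* (1617 and 1902) at the top. *Mertk*, a receptor for apoptotic cells, stood at 287 and 336 CPM. Lysosome genes summed to 14090 and 15838 CPM, led by the cathepsin gene *Ctss* (4339 and 5383), *Psap* (2255 and 2477) and *Lgmn* (1939 and 2077).

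Several genes that rise with microglial activation in other settings were abundant in members, whose 4 activation genes were held near 0 by the rule. The activation-linked list summed to 26860 and 29001 CPM in members, 29358 and 35953 in activated microglia and 41971 and 42125 in border macrophages. *Fth1*, the ferritin heavy chain, stood at 8672 and 10677 CPM and *Apoe* at 7458 and 7056. *Ctsd* stood at 2850 and 2814, *Ctsb* at 1326 and 1732, and *Cd83* at 862 and 812. *Spp1*, the secreted protein osteopontin, stood at 3.95 and 17.5 CPM in members against 15.4 and 181 in activated microglia, and *Gpnmb* at 3.95 and 3.83. *Igf1*, a growth factor, was at 0 UMIs in C-ON, where 3 UMIs are 5.93 CPM, and at 4.46 CPM in FMC_new.

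Immediate early and stress genes, which respond within minutes to handling as well as to signals in tissue, summed to 30899 and 31425 CPM. Activated microglia (32544 and 31763) and border macrophages (28590 and 26362) stood close to the members, and T cells far lower (6499 and 7427). *Junb* (3803 and 4099), *Fos* (3671 and 4239), *Jun* (3135 and 3011) and *Egr1* (2943 and 3083) led, while the heat shock genes *Hspa1a* (204 and 109) and *Hspa1b* (69.2 and 63.8) were low. Tissue dissociation was the same for all classes of a library, and its part in these levels was not tested.

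Receptors and channels through which microglia read nucleotides and transmitters summed to 1840 and 1948 CPM, against 1165 and 992 in border macrophages. *Entpd1*, which breaks down extracellular ATP, stood at 271 and 313 CPM, *P2ry6* at 188 and 202, and *Kcnk13*, a potassium channel, at 89.0 and 63.8. *Adora3*, an adenosine receptor, stood at 39.5 and 51.3 CPM in members and at 0 and 1.62 in border macrophages.

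*Nf1* encodes neurofibromin, which switches RAS off. It gave 59 UMIs in C-ON and 247 in FMC_new, 117 and 78.7 CPM, against 92.2 and 86.5 in activated microglia and 31.5 and 33.3 in T cells. The gene lies at chr11:79339693-79581612 of GRCm38 on the plus strand, and the counts do not tell the mutant from the intact allele. *Dusp6*, a phosphatase induced by RAS signaling, stood at 200 and 164 CPM. *Rasal3*, another RAS inhibitor, stood at 89.0 and 83.5 CPM in members and 15.8 and 22.7 in border macrophages. Genes of cell division summed to 239 and 210 CPM, below the 599 and 571 of T cells, with *Mki67* at 7 and 44 UMIs. Division was thus rarely detected in members at this depth.

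Chemokines and cytokines came next because the study places them between T cells, microglia and glioma growth. The list of 14 genes, called mediators here, also holds the receptor genes *Ccr1* and *Lrp1*. It summed to 3325 and 5728 CPM in members, 9031 and 9300 in activated microglia and 8545 and 7042 in border macrophages. *Ccl2*, which attracts monocytes, stood at 461 and 436 CPM in members, near activated microglia (566 and 553) and below border macrophages (2520 and 1808). *Ccl12* stood at 718 and 1116 CPM.

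*Ccl3* and *Ccl4*, chemokines that attract T cells and macrophages, differed between the libraries. *Ccl3* stood at 243 and 543 CPM, and *Ccl4* at 542 and 1465. Activated microglia held 587 and 694 CPM of *Ccl3* and 1827 and 2160 of *Ccl4*, and T cells 70.1 and 73.5 of *Ccl3* and 276 and 369 of *Ccl4*. *Ccl5*, which supports optic glioma growth in this model, stood at 134 and 493 CPM in members against 1898 and 1290 in activated microglia. Among cells of 4000 to 8000 UMIs this difference was smaller, at 206 and 354 CPM against 514 and 654. T cells held 3560 and 3644 CPM of *Ccl5*, and T and natural killer cell markers summed to 21.7 and 201 CPM in the members, with 4 and 0 of their 8 genes at 0 UMIs. T cell RNA and *Ccl5* were thus both higher in members of FMC_new, and the part of the former was not tested.

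*Il1a*, interleukin 1 alpha, was found mainly in both classes of microglia, at 374 and 513 CPM in members, 1057 and 902 in activated microglia, 99.1 and 41.0 in border macrophages and 0.213 and 2.99 in T cells. *Il1b*, interleukin 1 beta, stood at 316 and 530 CPM in members against 1012 and 1135 in activated microglia. *Tnf*, tumor necrosis factor, stood at 154 and 173 CPM against 323 and 395. *Mdk*, the midkine that neurons release in this model, was at 15.8 and 15.9 CPM in members, which is 8 and 50 UMIs.

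**Figure D4:**
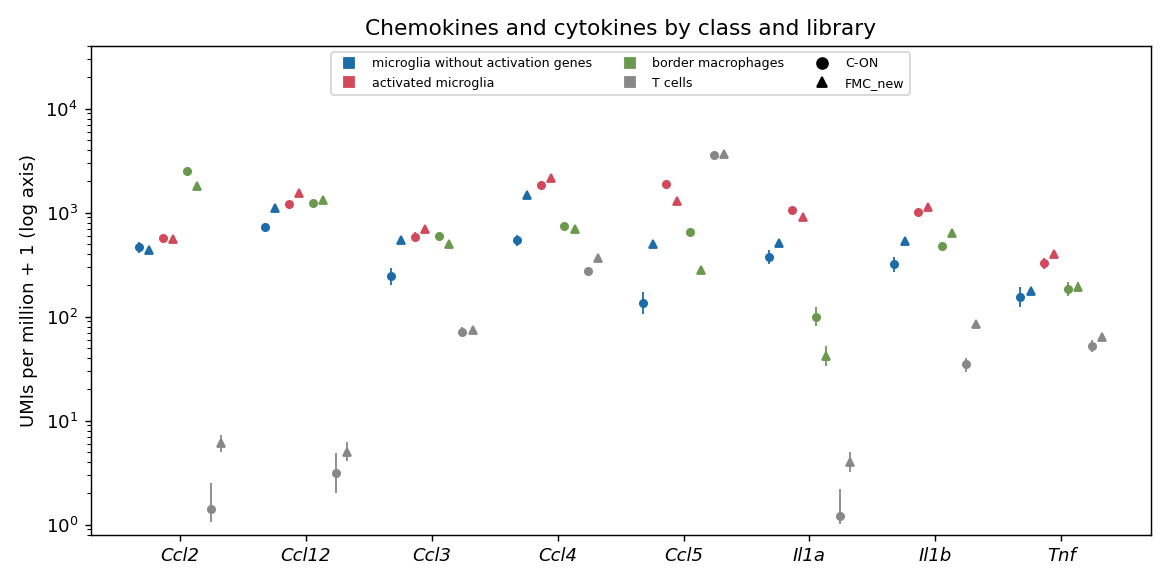
Level of 8 chemokine and cytokine genes in CPM plus 1 (log axis) in members, activated microglia, border macrophages and T cells, with circles for C-ON, triangles for FMC_new and bars for 95% Poisson intervals. *Ccl2* and *Ccl12* of members lie near activated microglia, *Ccl5*, *Il1b* and *Tnf* lie below them in both libraries, and *Il1a* is near 0 in T cells.

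Across all genes, members were set beside activated microglia by the ratio of their levels in each library. Of 5429 genes with at least 20 UMIs in the higher class of each library, 296 were at least 2-fold higher in members of both libraries (5.45%) and 28 at least 2-fold lower (0.516%). The genes of the rule were left out, and since the rule splits these same cells, the ratios describe the split and test nothing. The median gene stood 0.12 and 0.10 higher in members on the log2 scale.

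Of the gene lists, the 28 lower genes hold 3 of 13 tested mediators (*Ccl5*, *Il1b* and *Tnf*), 1 of 16 interferon genes (*Cxcl10*), 1 of 9 complement genes (*C3*) and 1 of 12 phagocytosis genes (the scavenger receptor gene *Cd36*). *Cxcl13*, a chemokine for B cells, stood at 119 and 933 CPM in members and 1181 and 3962 in activated microglia, 9.96-fold and 4.25-fold lower. Among cells of 4000 to 8000 UMIs it stood at 190 and 804 CPM against 330 and 2434, so the difference in C-ON was much smaller there. *Cxcl9*, an interferon-gamma-induced chemokine for T cells, stood at 29.7 and 146 CPM against 1233 and 447. *Acod1*, which makes the metabolite itaconate, had 2 and 61 UMIs in members against 44 and 393, and *Dcstamp*, which takes part in fusion of macrophages, 2 and 0 UMIs against 29 and 30. *Pdyn*, *Serpina3f*, *Klrb1b*, *Chst1*, *Fgr* and *Gmppb* complete the 10 with the steepest differences by the smaller of the 2 folds. The difference in *Cxcl9* was 41.6-fold in C-ON and 3.06-fold in FMC_new.

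By direction alone, 1288 of the 5429 genes were lower in members of both libraries (23.7%) and 2546 higher (46.9%). All 11 tested lysosome genes were lower in members of both libraries, with medians of -0.58 and -0.36 on the log2 scale, and none reached 2-fold. All 6 tested MHC class II genes were lower (medians -0.69 and -0.37), 8 of 9 MHC class I genes (-0.99 and -0.29), 8 of 9 complement genes (-0.67 and -0.36), 13 of 16 interferon genes (-0.53 and -0.30), 10 of 13 mediators (-1.07 and -0.56) and 14 of 19 activation-linked genes (-0.50 and -0.67). Examples are *Ctsz* at 729 and 1027 CPM (lower by 1.20 and 0.72 on the log2 scale), *Cd63* at 297 and 462 (1.12 and 0.90 lower) and *Cd74* (0.93 and 0.48 lower). Of the 19 activation-linked genes, 3 were higher in members of both libraries, and of these *Ank* was at least 2-fold higher. No gene of that list was 2-fold lower in both libraries. Surveying-state genes were not higher as a list, with 5 of 20 higher and 4 lower in both libraries, none 2-fold, and medians of -0.09 and 0.16. *Trem2*, the lipid receptor of microglia, was lower in members (638 and 852 against 939 and 1005 CPM). Immediate early genes had medians of -0.05 and 0.02.

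The same lists were read among cells of 4000 to 8000 UMIs, 46 and 254 members and 31 and 227 activated microglia. Mediators remained lower in members, at 2919 and 6679 CPM against 6698 and 8991. Lysosome genes stood at 15010 and 17857 against 18992 and 19924, and MHC class I at 5980 and 9925 against 8308 and 11269. The MHC class II gap all but closed, at 24127 and 34839 CPM in members against 24700 and 35457 in activated microglia. Activation-linked genes stood at 27703 and 30198 CPM against 24644 and 33913, higher in members of C-ON and lower in FMC_new. Of 2334 genes tested in this window, 1 was at least 2-fold lower in members of both libraries (*Cxcl9*, 0.0428%) and 31 higher (1.33%). Of the 28 genes above, 10 were tested in it, and the others had too few UMIs.

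**Figure D5:**
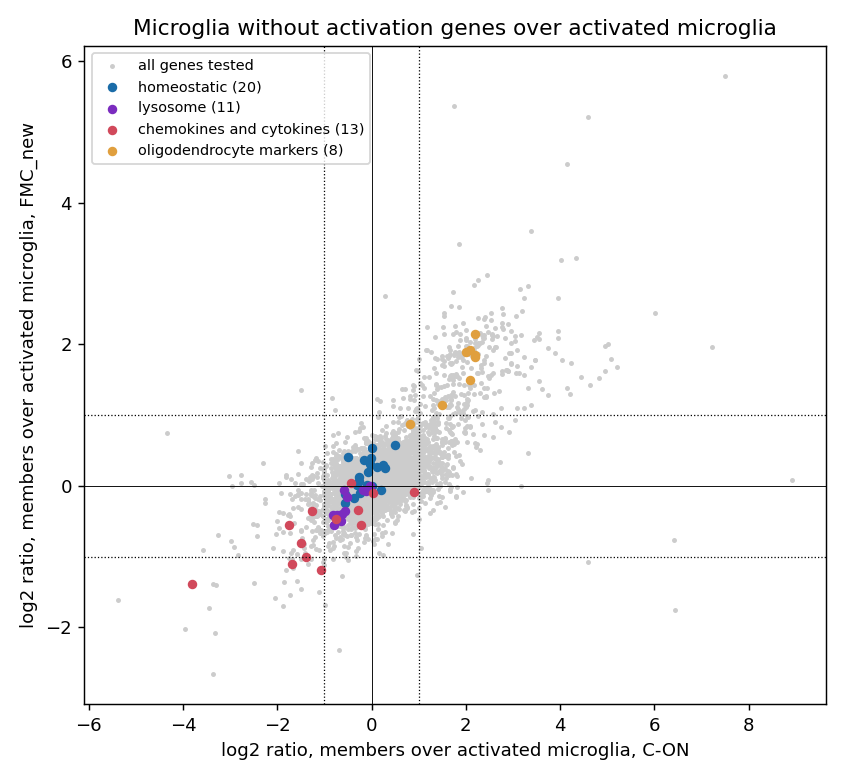
Log2 ratio of members over activated microglia in C-ON (horizontal axis) and FMC_new (vertical axis) for each tested gene (grey), with surveying-state (blue), lysosome (purple), mediator (red) and oligodendrocyte (orange) genes marked and dotted lines at 2-fold. Lysosome and mediator genes lie mostly below 0 on both axes, surveying-state genes around 0, and oligodendrocyte genes far above 0.

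Marker genes of other cell types stood out among those higher in members than in activated microglia. Of 8 oligodendrocyte markers 7 were at least 2-fold higher, with medians of 2.09 and 1.83 on the log2 scale, and the list summed to 13062 and 8028 CPM in members against 3846 and 2965. The T cells of the same libraries held 14689 and 6517 CPM of it. More than 1% of UMIs came from this list in 19 of 95 members of C-ON and 112 of 596 (18.8%) of FMC_new, which held 84.5% and 71.0% of its UMIs. In activated microglia 4.82% and 5.96% of cells passed that mark. Without such cells 43 of 4712 tested genes were at least 2-fold higher in members (0.913%), of which 41 are among the 296, and 19 were lower (0.403%), all among the 28. With all cells kept, the ranking of higher genes was led by *Ccn3* (128 and 317 UMIs against 1 and 9) and *Ecrg4* (51 and 118 against 0 and 5). *Mgp* (25 and 488 against 2 and 33), *Ogn* (22 and 23 against 0 and 3) and *Col1a2* (43 and 53 against 0 and 9) followed. *Efemp1*, *Plekhg3*, *A330049N07Rik*, *Col6a2* and *Dcn* complete the first 10 of that ranking, with *Col1a2* and *Dcn* on the list of fibroblast markers. Fibroblast markers summed to 208 and 31.9 CPM in members and 0 and 4.45 in activated microglia. In C-ON 61 of the 105 fibroblast UMIs lay in 1 member, and after thinning to 1000 UMIs 91 of 93 members held 0. Of 8 border macrophage markers, the 2 tested, *Mrc1* and *Ms4a7*, were at least 2-fold higher in members, with medians of 3.59 and 1.32. That list summed to 241 and 133 CPM in members and 19.6 and 55.2 in activated microglia. Both genes stayed at least 2-fold higher without cells rich in oligodendrocyte markers, and *Mrc1* also did within 4000 to 8000 UMIs. The part of RNA from oligodendrocytes, fibroblasts and border macrophages in these ratios was not tested, and neither was that of depth.

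The activation UMIs left inside the class were also followed across its limit. Mediators stood at 3595 and 5000 CPM in members with 0 activation UMIs, 2557 and 6846 with 1, and 8602 and 7406 in the 17 and 144 cells just outside with 2. MHC class II stood at 26073 and 30765, 28024 and 32777, and 41624 and 39019 CPM, and lysosome genes at 13770 and 15081, 15005 and 16999, and 20804 and 18965. Median depth went from 4768 and 4189 UMIs with 0 activation UMIs to 6851 and 6121 with 2.

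Border macrophages are the other resident macrophages of the nerve and its sheath. Of 6464 genes tested, 243 were at least 2-fold higher in members of both libraries (3.76%) and 199 lower (3.08%), and the median gene differed by 0.02 and 0.14. The limits that define both classes use microglial and border macrophage genes, so these ratios also describe the split and test nothing. *Gal3st4*, a sulfotransferase, had 38 and 297 UMIs in members against 1 and 2, and *Cd34* 62 and 388 against 1 and 8. *Lag3*, better known as a checkpoint receptor of T cells, stood at 174 and 284 CPM in members, 51.5-fold (17.1 to 254) and 15.9-fold above border macrophages. *Adgrg1*, an adhesion receptor, had 58 and 266 UMIs in members against 0 and 7. Of 20 tested surveying-state genes, 14 were at least 2-fold higher and none 2-fold lower, with medians of 1.96 and 1.91.

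On the other side stood known genes of border macrophages. *Cd163*, the haemoglobin scavenger receptor, had 3 and 7 UMIs in members against 309 and 451, *Cbr2* 7 and 15 against 438 and 671, *Pf4* 11 and 32 against 612 and 957, and *Fcna* 0 and 4 against 168 and 290. *Timd4* (0 and 10 UMIs against 103 and 185), *Clec10a*, *Ccl24*, *Hal* and *Mgl2* followed. Of the mediators, *Ccl7* stood at 61.3 and 71.4 CPM in members against 1582 and 1053, and only *Il1a* was at least 2-fold higher in members. *Lyz2* stood at 1791 and 1134 CPM against 9334 and 10854, and *Apoe* at 7458 and 7056 against 15331 and 14349. *Ctsd* went the opposite way, at 2850 and 2814 against 481 and 457 CPM. MHC class II held no gene past 2-fold in the same direction in both libraries (medians -0.17 and -0.81).

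Against all other kept cells, 1535 of 16518 genes were at least 2-fold higher in members (9.29%) and 1300 lower (7.87%), with medians of 0.36 and -0.25. Of 21 tested surveying-state genes 19 were 2-fold higher, as were 7 of 9 complement genes, 11 of 13 phagocytosis genes, 11 of 13 microglial factors and TGF-beta parts and 9 of 12 receptors and channels, but 3 of 7 MHC class II genes and 0 of 9 MHC class I genes. *Crybb1*, a crystallin gene also active in microglia, stood at 180 and 281 CPM, 31.8-fold and 19.9-fold higher, and *Ecscr* (72.2-fold and 21.4-fold), *Slc2a5* (72.8-fold and 21.3-fold), *Tal1* (57.7-fold and 21.0-fold) and *P2ry13* (38.9-fold and 15.2-fold) ranked with it. The other kept cells include the 83 and 570 activated microglia, and the rule made this split as well. The 10 steepest lower genes were variable segments of immunoglobulin, such as *Igkv6-15* (22.4-fold and 19.5-fold), whose reads may be divided among close copies.

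The steepest differences between members of C-ON and FMC_new included RNA of cells outside the nerve's glia. *Gh*, growth hormone of the pituitary, had 1 UMI in members of C-ON and 15216 in FMC_new, where 595 of 596 members and 3233 of 3234 T cells held it. *Prl* (0 and 3338 UMIs) and *Pomc* (1 and 1175) behaved alike, and pituitary markers summed to 5.93 and 6313 CPM in members and to 3.83 and 9315 in T cells. In C-ON 4 of the 7 pituitary genes were at 0 in members, and in FMC_new 1 was. In FMC_new 98 members (16.4%) took more than 1% of their UMIs from this list. B and plasma cell markers summed to 249 and 1950 CPM, against 236 and 1378 in activated microglia. Haemoglobin genes went the other way by CPM, with *Hbb-bs* at 4721 CPM in C-ON and 919 in FMC_new. Its counts were 2388 UMIs in 18 C-ON members and 2882 UMIs in 172 members of FMC_new. Of the erythroid UMIs, 99.2% in C-ON lay in 2 members and 92.7% in FMC_new in 3.

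For microglial genes the libraries lay closer. The ratio of C-ON to FMC_new was -0.10 on the log2 scale for the surveying-state list, 0.01 for interferon genes, -0.02 for immediate early genes and -0.25 for MHC class II, and it was -0.71 for MHC class I and -0.78 for mediators. Defining markers of other leukocytes were low, with neutrophil genes at 0 and 43.4 CPM (5 and 2 of 5 genes at 0 UMIs), monocyte genes at 73.1 and 147 and dendritic cell genes at 47.4 and 24.9. Markers of oligodendrocyte precursors and glioma cells summed to 212 and 223 CPM, against 2.80 and 62.5 in activated microglia. Neuron markers summed to 51.4 and 59.9 CPM, astrocyte markers to 255 and 240 and endothelial markers to 31.6 and 23.0. Fewer cells of a type in a pool and less of its RNA per cell cannot be told apart for such traces.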

How the data were processed

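The measured material was RNA of single cells from *Nf1*-OPG optic nerves in 2 libraries made with a 5′ droplet kit. The nerves were dissociated enzymatically and cleared of debris and myelin. The authors deposited filtered matrices of raw UMI counts per gene and cell, made with Cell Ranger 7.2.0 on the mm10-2020-A reference per the labels and file headers. The study's methods name an earlier version of that program, and the file headers were followed. Whether intronic reads were counted is not given in the sources used here. The files hold 32285 genes, and 10845 and 21341 barcodes with 85101211 and 129113325 UMIs.

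Barcodes with 500 to 5000 genes, 500 to 20000 UMIs and at most 5% mitochondrial UMIs were kept, after the study's methods. The members and the 28 gene lists were chosen with earlier results of these data known. UMIs were summed per class and library and divided by the class total. Exact Poisson and Clopper-Pearson intervals (95%) and exact intervals for ratios cover counting error only. No p-value was computed, since there is 1 condition. A gene was tested where the higher class had at least 20 UMIs in each library, and a ratio against 0 UMIs was set to a floor of 3. T cells had at least 3 UMIs of *Cd3e*, *Cd3d*, *Trac* and *Trbc2* and 0 of *Csf1r* and *C1qa*. Cells thinned to 1000 UMIs were used for values per cell.

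Genes were named when they belonged to the rule, when they stood highest or lowest in a list or were mediators the study measured, and when they were among the 10 steepest each way by the smaller fold of both libraries (50 UMIs for C-ON against FMC_new). *Maf*, *Fcrls*, *Ltc4s*, *Trem2*, the shares and bins of *Sparc* and others within a list were added after their values were seen. Some genes of the lists are not reported here. The calculation was tested on simulated data. Scrublet marked 1 of 8834 and 0 of 16818 cells, which means that it did not work, and doublets were not removed. Promoters came from RefSeq tables of GRCm38.p6, and 350 of 350 named genes were matched to its annotation by gene ID. Python 3.11.15, numpy 2.4.6, pandas 2.3.3, scipy 1.17.1, scanpy 1.11.5 and matplotlib 3.10.9 were used. Alternatives varied the marker limits, the filters, the depth and the libraries.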

Additional observations from a re-analysis of the deposited data

Results flagged for a closer look

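Barcodes outside the limits on genes, UMIs or mitochondrial share entered no comparison, yet some met the marker limits of the class. There were 15 in C-ON, 0.746% of 2011 such barcodes (95% exact binomial interval 0.418 to 1.23), and 50 in FMC_new, 1.11% of 4523 (0.822 to 1.45). Of these 9 and 22 lay over the upper limits on genes or UMIs, 3 and 16 over the mitochondrial limit, and 3 and 12 under the gene limit. Their median depth was 21920 UMIs in C-ON and 4352 in FMC_new. Surveying-state genes summed to 6204 and 13907 CPM in them and MHC class II genes to 6796 and 15119, below the levels of the members. Oligodendrocyte markers summed to 60082 and 4230 CPM.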

How the results depend on the processing

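No paired analysis was possible because both libraries belong to 1 condition and no result comes from a test between groups. The settings were the marker limits (2 or 5 UMIs instead of 3, 0 activation UMIs, 0 border UMIs), the filters (none on upper limits, 10% mitochondrial UMIs, none on low genes), thinning before the limits are applied, means per cell, totals without marker lists, removal of cells rich in oligodendrocyte markers, and the window of 4000 to 8000 UMIs. Some were chosen after seeing the data. Of the values they gave, 71 moved by less than the spread between libraries or within 1.5 times, and 28 by more. The surveying-state ratio over activated microglia lay near 0 and took either sign, from -0.12 with a limit of 2 UMIs to 0.17 with 5. The other ratios kept their direction.

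The log2 ratio of the surveying-state list over border macrophages (2.19) was 2.01 with a limit of 2 UMIs, 2.39 with 5, 2.06 without upper limits, 2.30 after thinning, 2.22 as a mean per cell and 2.15 in the window. MHC class II over both libraries (30867 CPM) was 26590 with 5 UMIs and 27280 without upper limits. Interferon genes (2474 CPM, SD of 13.9 between libraries) were 2523 with 2 UMIs, 2391 with 5, 2182 with 0 activation UMIs, 2294 without upper limits, 2491 at 10% mitochondrial UMIs, 2280 after thinning, 2501 per cell, 2520 with marker lists out of the totals, 2496 without those rich in oligodendrocyte markers and 2252 in the window. The activation-linked list over activated microglia (-0.29) was -0.14 in the window. The 28 genes lower than in activated microglia became 45 with 0 activation UMIs, 4 after thinning, 98 without a filter on low genes and 1 in the window, and the 296 higher genes 88 with 5 UMIs, 31 after thinning, 1181 without that filter, 43 without cells rich in oligodendrocyte markers and 31 in the window. The cause was not tested.

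Leaving out C-ON or FMC_new gave shares of members from 1.08 to 3.54% (2.69%), surveying-state ratios over activated microglia from -0.25 to 0.065 (0.02), activation-linked ratios from -0.31 to -0.13, ratios over border macrophages from 2.15 to 2.18, MHC class II from 26580 to 31559 CPM, interferon genes from 2471 to 2491 CPM, the sum of Ccl2, Ccl3, Ccl4 and Ccl5 alone from 1380 to 2937 CPM (2721), 163 to 190 lower genes and 632 to 963 higher genes. In these runs a gene had to pass the limits in 1 library instead of 2. Genes tested were 11033 without C-ON and 5435 without FMC_new, against 5429 with both. With 95 cells C-ON limits every value given per bin.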
